A study of Mus musculus with 7 samples.

Results

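The 9 genes described here encode the non-laminin scaffold of the basement membrane. They are 3 collagen IV chains (Col4a1, Col4a2 and Col4a5), the multiplexin collagens Col15a1 and Col18a1, the nidogens Nid1 and Nid2, and the heparan sulfate proteoglycans Hspg2 (perlecan) and Agrn (agrin). They were taken by symbol from the 24421 rows of a table of raw counts, and each symbol had 1 row. All 9 passed the filter on low counts that left 10535 genes to be tested. Stromal cells of BALB/c mice were compared between a group called pCAF, with 3 libraries, and a group called NMF, with 4. The pCAF cells came from mammary tumors that grew after 100000 cells of 4T1-luc, a luciferase-marked mouse mammary carcinoma line, had been placed in the fat pad, and that were taken at about 1 cm. They were sorted as negative for Ter119, CD45 and EpCAM and positive for PDPN, podoplanin, a membrane mucoprotein found on many fibroblasts. The NMF cells came from untreated mammary fat pads and were sorted on the same 3 negative markers, with no selection on PDPN. The labels gave an age of 8 weeks for pCAF, which is also the age at injection, and 12 weeks for NMF, where the design text speaks of matched ages. The 2 tissues were digested with different collagenases, so tissue, gate, age and digestion cannot be told apart. The labels call the replicates biological and name no animals, so a p-value here measures only how these libraries vary, which may in part be technical.

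Basement membranes are thin sheets of matrix beneath epithelia and endothelia and around adipocytes, muscle cells and Schwann cells. Laminins bind to cells and form a first network, collagen IV forms a second network that is crosslinked covalently, and nidogens and perlecan join them. Fibroblasts, endothelial cells and mural cells all contribute these proteins in the mammary gland, and tumor invasion involves breaching the sheet.

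Libraries held 1885039 to 4990070 counts in all, from the 3' ends of polyadenylated RNA. CPM values are counts per 1000000 counts of the effective library size, which includes a TMM scaling factor. Fibroblast markers were abundant in both groups, with a summed level of 73283 to 82725 CPM in pCAF and 26331 to 46233 CPM in NMF over 10 genes. Of the 10, 5 rose and 1 fell, and Col1a1, Col1a2 and Col3a1 held most of the sum. Over all tested genes 14.3% rose and 14.2% fell. Pdpn, on which only pCAF was sorted, is 1 of the 10 (281 to 987 against 44.1 to 58.4 CPM). Its difference is therefore not independent of the gate. Dcn (3867 to 6057 against 6397 to 12045 CPM) and Dpt (615 to 2255 against 2947 to 3997 CPM) were lower in every pCAF library than in any NMF library. The 16 blood endothelial markers all fell, and their sum ran from 93.7 to 98.6 CPM in pCAF and from 2825 to 4759.9 CPM in NMF. In pCAF Sox17 was at 0, and Cdh5 held 0 to 4 counts per library. Of 8 adipocyte markers 5 were tested and fell (1.13 to 12.2 against 220.4 to 545 CPM), as did the 5 tested of 7 Schwann cell markers (4.99 to 16.3 against 259 to 1011 CPM). Of 8 pericyte markers 4 fell and 1 rose (226 to 481 against 341 to 539.6 CPM), with Higd1b at 0 in pCAF. Of 4 tested smooth muscle genes 3 rose (308 to 534 against 52.8 to 187 CPM over 6 genes). Of 10 tested epithelial markers 4 fell (137.5 to 289 against 202 to 636 CPM over 11 genes), and of 6 tested immune markers 3 fell (23.3 to 58.0 against 20.7 to 218 CPM over 9 genes). Lymphatic endothelial markers were low in both groups (23.3 to 46.8 against 32.4 to 78.8 CPM over 6 genes, 1 higher and 1 lower of 3 tested), and 4 of 5 erythroid genes were at 0 in every library. In each group 1 library stood apart, replicate 1 in pCAF and replicate 4 in NMF. Chi-square over its degrees of freedom, a measure of how far counts of a pair of libraries differ, was 39.98 and 42.2 for pCAF replicate 1 against the other pCAF libraries and 3.22 between those. For NMF replicate 4 against the others it was 35.6 to 39.8, and among the others 6.47 to 10.1. In pCAF replicate 1, 11090 genes had counts, against 13409 and 13555 in replicates 2 and 3, although it held the most counts of its group. Its TMM factor was 0.83, against 0.95 and 0.96. NMF replicate 4 held 4990070 counts, against 2223198 to 2714492 in the other NMF libraries. It had counts for 13222 genes, against 14110 to 14353. The selection label of pCAF replicate 3 reads PDPN negative. Its Pdpn count was 692, against 1779 and 498 in replicates 1 and 2, and it was kept in the group that its title names.

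Start regions of 4 of the genes are printed because results below turn on them as pairs. All positions are on mm10, and the windows, from RefSeq on GRCm38.p6, run from 250 bases before a start site to 50 bases after it. A window was found for 8 of the 9 genes, 10 windows in all, with no entry for Nid2. Col4a1 (chromosome 8, 11198423 to 11312826, minus strand) and Col4a2 (11312805 to 11449287, plus strand) lie head to head. Their annotated start sites, 11312826 and 11312805, are 21 bases apart, so the windows share 78 bases, read from opposite strands. The shared bases are in capitals in the windows chr8:11312777-11313076 (minus strand) and chr8:11312555-11312854 (plus strand).
Col4a1: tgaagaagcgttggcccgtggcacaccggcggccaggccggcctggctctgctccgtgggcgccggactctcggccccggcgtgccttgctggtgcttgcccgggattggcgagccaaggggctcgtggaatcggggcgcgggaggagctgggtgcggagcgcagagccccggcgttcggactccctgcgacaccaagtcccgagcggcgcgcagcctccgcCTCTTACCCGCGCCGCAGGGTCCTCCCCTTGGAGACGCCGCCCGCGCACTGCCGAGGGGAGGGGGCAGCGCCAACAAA
Col4a2: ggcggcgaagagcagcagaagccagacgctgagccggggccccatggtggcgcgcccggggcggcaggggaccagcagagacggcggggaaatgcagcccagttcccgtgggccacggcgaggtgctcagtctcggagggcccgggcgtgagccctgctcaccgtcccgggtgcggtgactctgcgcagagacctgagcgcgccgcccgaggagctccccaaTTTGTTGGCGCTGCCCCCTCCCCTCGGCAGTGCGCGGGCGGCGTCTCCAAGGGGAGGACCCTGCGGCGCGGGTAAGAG

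Col15a1 (chromosome 4, 47208161 to 47313167, plus strand) and Col18a1 (chromosome 10, 77052178 to 77166548, minus strand) encode the related pair of multiplexins. Col18a1 has 2 start sites in the table, and counts from the 3' end cannot tell their transcripts apart. Gene spans are from GENCODE M21 and windows from RefSeq, whose start sites can differ: that of Col15a1, at 47208012, lies before the GENCODE span. The windows are chr4:47207762-47208061 (plus strand) for Col15a1, chr10:77166481-77166780 (minus strand) for the upstream start of Col18a1 and chr10:77113656-77113955 (minus strand) for its downstream start. Capitals mark GC boxes, the letters GGGCGG on either strand, of which the upstream Col18a1 window holds 3 and the other windows of this pair hold 0.
Col15a1: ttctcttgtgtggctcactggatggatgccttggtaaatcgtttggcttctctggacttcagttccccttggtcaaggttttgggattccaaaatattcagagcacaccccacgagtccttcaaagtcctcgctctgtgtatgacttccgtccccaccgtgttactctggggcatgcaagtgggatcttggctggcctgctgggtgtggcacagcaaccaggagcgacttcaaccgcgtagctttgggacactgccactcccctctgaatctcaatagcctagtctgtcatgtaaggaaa
Col18a1 upstream: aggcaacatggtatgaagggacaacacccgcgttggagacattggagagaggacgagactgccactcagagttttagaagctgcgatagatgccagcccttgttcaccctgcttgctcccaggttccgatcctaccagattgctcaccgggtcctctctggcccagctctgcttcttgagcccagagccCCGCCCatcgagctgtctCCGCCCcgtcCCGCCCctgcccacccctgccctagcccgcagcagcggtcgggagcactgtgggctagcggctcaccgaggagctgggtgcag
Col18a1 downstream: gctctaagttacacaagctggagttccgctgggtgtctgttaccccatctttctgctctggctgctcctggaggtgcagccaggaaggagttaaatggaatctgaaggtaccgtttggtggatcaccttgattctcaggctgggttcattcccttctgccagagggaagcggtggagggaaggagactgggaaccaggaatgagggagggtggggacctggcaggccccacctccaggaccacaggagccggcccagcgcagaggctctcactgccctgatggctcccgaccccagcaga

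GC boxes were in 8 of the 10 windows, of 7 genes, against 35.6% of the 32817 windows of all genes. The letters CCAAT, on either strand, were in 5 windows, against 37.4% of all windows. In the Col4a1 and Col4a2 windows the GC content was 74.0% and 73.7%, with 37 and 33 CpG dinucleotides, where the median window has 52.7% and 7. The Col15a1 window, at 52.3% and 8, lay near that median, while the Col18a1 windows held 63.3% and 16 (upstream) and 59.7% and 6 (downstream). The highest GC content, 83.3%, was in the upstream window of Agrn. For RUNX, the family named in the series title, the letters TGTGGT or TGCGGT on either strand were in 3 windows (Col4a2, the downstream start of Col18a1 and the upstream start of Agrn), against 22.4% of all windows. TATAAA (13.6% of all windows) and the AP-1 letters TGACTCA or TGAGTCA (5.20%) were in 0 of the 10. These are matches of letters, not measured binding sites.

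Of the 9 genes, Col15a1 was higher in the pCAF libraries than in the NMF libraries, Col18a1 and Nid2 were lower, and 6 did not pass. A call means an adjusted p under 0.05 in edgeR's quasi-likelihood test, adjusted by Benjamini-Hochberg over all 10535 genes. The 1 gene that rose is 11.1% of the 9, where 14.3% of all tested genes rose, and the 2 that fell are 22.2%, where 14.2% of all fell. The pCAF and NMF libraries did not overlap for the same 3 genes, with pCAF below NMF in 2 (21.4% of all genes) and above in 1 (19.0% of all genes). The median log2 fold change of the 9 was -0.25, against -0.02 over all tested genes. Summed over the 9 genes, the level was 3610.3, 2923 and 2919 CPM in pCAF replicates 1 to 3 and 3159.9, 2708, 3608 and 4507 CPM in NMF replicates 1 to 4, and the groups overlapped. With library totals as the only scaling, the median of all genes moved to -0.26 and that of the 9 to -0.49, and 37.1% of all calls were higher in pCAF in place of 50.2%.

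**Figure D1:**
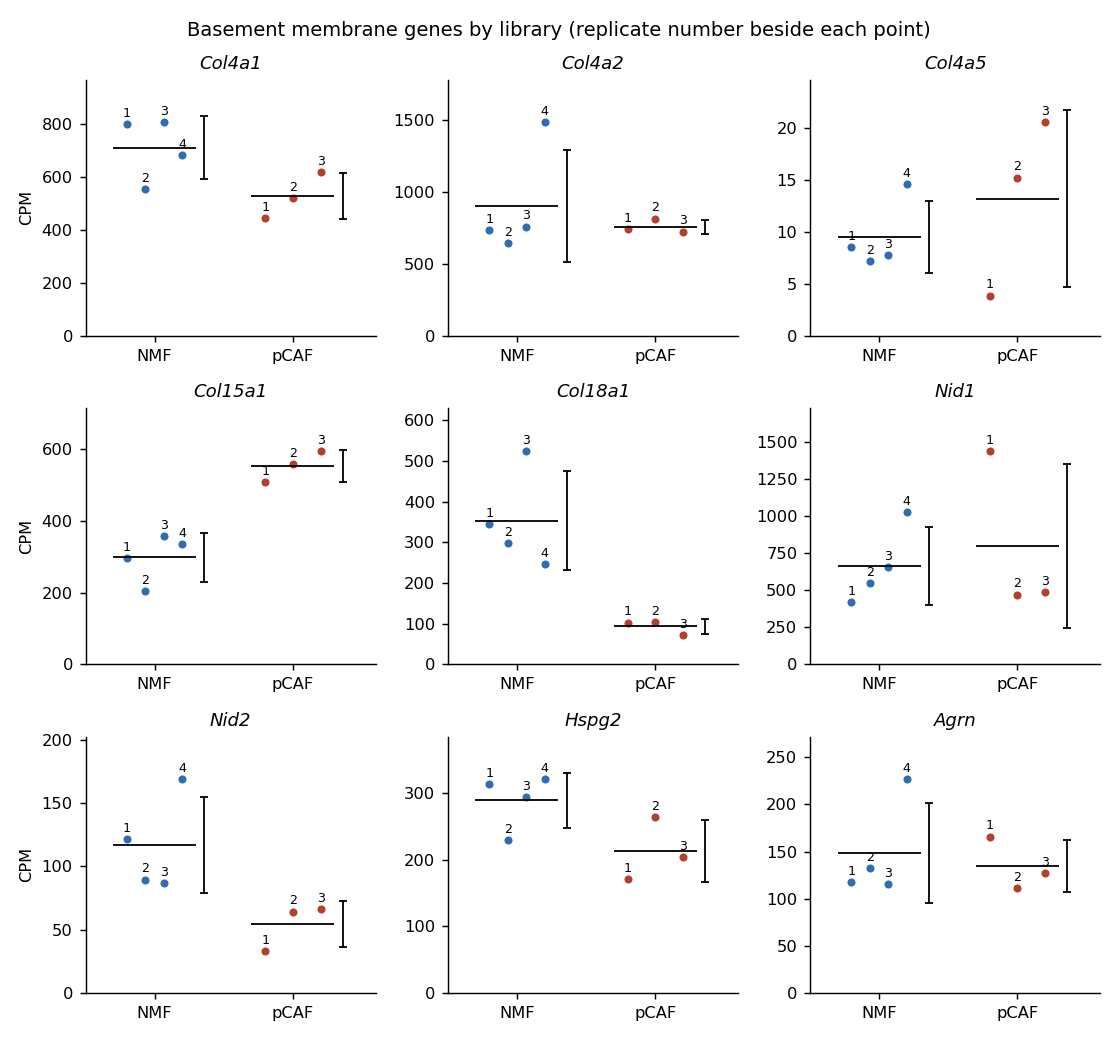
Level of each of the 9 genes in CPM (vertical axes, linear, each with its own range) in the 4 NMF libraries (blue) and the 3 pCAF libraries (red). Numbers are replicate numbers, horizontal lines are group means and bars are SD. Only for Col15a1, Col18a1 and Nid2 do the groups not overlap.

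Collagen IV chains come first, as the framework of the sheet. Col4a1 encodes the chain that forms, with that of Col4a2, the collagen IV of most basement membranes. It stood at 447, 521 and 621 CPM in pCAF replicates 1 to 3 and at 801, 556, 807 and 685 CPM in NMF replicates 1 to 4. pCAF replicate 3 lay above NMF replicate 2, and the other pCAF libraries lay below all NMF libraries. The means were 529.6 ± 87.2 CPM (SD, n = 3) and 712 ± 118 CPM (SD, n = 4), with a log2 fold change of -0.43 (SE 0.26, 95% interval -1.004 to 0.15) and an adjusted p of 0.251. Col4a2 stood at 739.8, 815 and 724 CPM in pCAF and at 735, 643, 759 and 1482 CPM in NMF. NMF replicate 4 was far above the other 6 libraries, which were close together across the groups. The means of Col4a2 were 759.6 ± 48.2 and 905 ± 388 CPM, and it did not pass (log2 fold change -0.25, SE 0.33, 95% interval -0.98 to 0.47, adjusted p = 0.607). Without NMF replicate 4 its log2 fold change was 0.11 (adjusted p = 0.730).

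Col4a5 (chromosome X, 141475385 to 141689234, plus strand), whose chain belongs to trimers of the kidney glomerulus and other specialised membranes, was scarce here. It had 7, 27 and 37 counts in the pCAF libraries against 22, 17, 22 and 78 in the NMF libraries, or 3.88, 15.2 and 20.5 CPM against 8.50, 7.18, 7.74 and 14.6 CPM. pCAF replicate 1 was the lowest of all libraries and pCAF replicates 2 and 3 were the highest. Over all libraries it did not pass (log2 fold change 0.46, SE 0.56, adjusted p = 0.584). Without pCAF replicate 1 and NMF replicate 4 together, the libraries that stood apart, Col4a5 was 2.26-fold higher (log2 fold change 1.18, SE 0.34, adjusted p = 0.00754). In that fit 25.9% of all genes were higher and 26.9% lower, and of the 9 genes 2 were higher (Col4a5 and Col15a1) and 2 lower (Col18a1 and Nid2).

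Because the start sites of Col4a1 and Col4a2 are neighbours and their chains join in 1 trimer, their ratio within each library was compared, which needs no scaling between libraries. Col4a2 counts over Col4a1 counts gave 1.66, 1.56 and 1.17 in pCAF and 0.917, 1.16, 0.940 and 2.17 in NMF. All 3 pCAF ratios were above those of NMF replicates 1 to 3 and below that of NMF replicate 4. The mean log2 ratio was 0.25 higher in pCAF (0.53 ± 0.27, SD, n = 3, against 0.28 ± 0.58, SD, n = 4). The difference was smaller than the spread within NMF (exact two-sided permutation test, p = 0.571). Without NMF replicate 4 it was 0.53, and the groups did not overlap (exact permutation p = 0.100, the smallest that 3 against 3 libraries allow). Over the 3 ratios tested here the Benjamini-Hochberg adjusted value from the exact permutation tests was 0.571. The smallest p that 3 against 4 libraries allow is 0.0571, so none of the 3 could pass 0.05.

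The multiplexins Col15a1 and Col18a1 went opposite ways. Both encode collagens with interrupted triple helices that carry glycosaminoglycan chains at the interface of basement membrane and stroma, and both release a C-terminal fragment, endostatin in the case of Col18a1. Col15a1 stood at 508, 559 and 596 CPM in pCAF and at 297, 204, 358 and 335 CPM in NMF, so every pCAF library was above every NMF library. It was 1.86-fold higher in pCAF (554 ± 44.1 CPM, n = 3, against 299 ± 67.8 CPM, n = 4; log2 fold change 0.89, SE 0.26, edgeR adjusted p = 0.0286). Col18a1 stood at 103, 105 and 72.6 CPM in pCAF and at 345, 298, 525 and 247 CPM in NMF. The highest pCAF library held less than the lowest NMF library, replicate 4. Col18a1 was 3.78-fold lower in pCAF (93.5 ± 18.1 CPM, n = 3, against 354 ± 121 CPM, n = 4; log2 fold change -1.92, SE 0.33, edgeR adjusted p = 0.00192). It passed in all 16 alternative fits, with log2 fold changes from -2.16 to -1.65. Col15a1 no longer passed when pCAF replicate 2 (adjusted p = 0.0788) or 3 (0.0891) or NMF replicate 1 (0.0797) or 2 (0.0823) was left out, with the log2 fold change between 0.74 and 0.89 in these fits. It was also lost with library totals (0.66, adjusted p = 0.0898) and with the replicate number as a block (0.99, adjusted p = 0.0549).

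The count ratio of Col15a1 to Col18a1 was 4.92, 5.33 and 8.21 in pCAF and 0.862, 0.684, 0.681 and 1.36 in NMF. No NMF library came near the lowest pCAF ratio. The mean log2 ratio was 2.58 ± 0.40 (SD, n = 3) in pCAF and -0.22 ± 0.47 (SD, n = 4) in NMF, a difference of 2.80, or 6.96-fold between the groups. The exact two-sided permutation test gave p = 0.0571, the smallest it can give, and 0.171 after adjustment over the 3 ratios. Leaving out any of the 7 libraries left the difference between 2.57 and 3.02. All 16 blood endothelial markers, and all 5 tested markers each of adipocytes and Schwann cells, moved in the same direction as Col18a1. The endothelial sum was 4035, 4759.9, 2825 and 3437 CPM in NMF replicates 1 to 4, where Col18a1 stood at 345, 298, 525 and 247 CPM. The part of these cell types in the fall of Col18a1 was not tested. Summed fibroblast markers were higher in every pCAF library than in any NMF library, though Dcn and Dpt were lower. Their part in the rise of Col15a1 was not tested. In bulk samples, fewer cells of a type and less RNA per cell cannot be told apart.

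**Figure D2:**
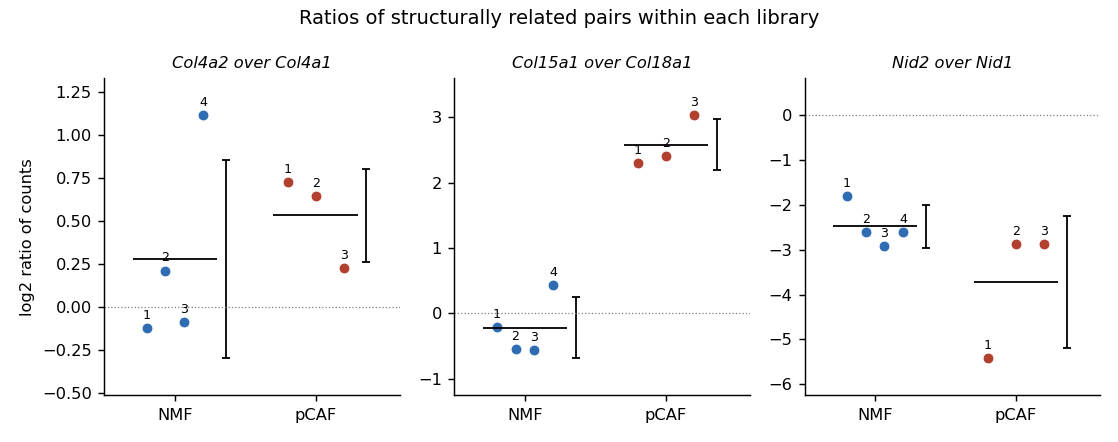
Log2 ratio of counts (vertical axes) for Col4a2 over Col4a1, Col15a1 over Col18a1 and Nid2 over Nid1 in each NMF (blue) and pCAF (red) library, with replicate numbers, group means (lines) and SD (bars). Only for Col15a1 over Col18a1 are the groups apart, at 2.30 to 3.03 in pCAF and -0.55 to 0.44 in NMF.

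Nidogens bind both laminin and collagen IV. Nid1 (chromosome 13, 13437551 to 13512269, plus strand) stood at 1439, 469.8 and 488 CPM in pCAF and at 422, 548, 655 and 1028 CPM in NMF. pCAF replicate 1 held 3.003 times the mean of pCAF replicates 2 and 3, and these lay within the NMF range. The log2 fold change was 0.27 (SE 0.45, 95% interval -0.73 to 1.27, adjusted p = 0.702). It was -0.47 without pCAF replicate 1 (adjusted p = 0.291), and -0.02 with library totals, so its sign changed with these settings.

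Nid2 (chromosome 14, 19751265 to 19811787, plus strand) was at 33.3, 64.2 and 66.0 CPM in pCAF and at 121, 89.5, 86.9 and 169 CPM in NMF. The groups did not overlap, with the extremes again in pCAF replicate 1 and NMF replicate 4. Nid2 was 2.14-fold lower in pCAF (54.5 ± 18.4 CPM, n = 3, against 117 ± 38.0 CPM, n = 4; log2 fold change -1.10, SE 0.35, edgeR adjusted p = 0.0387). Nid2 no longer passed when pCAF replicate 1 (adjusted p = 0.0507), 2 (0.0674) or 3 (0.0612) or NMF replicate 1 (0.0873), 2 (0.0529) or 4 (0.0748) was left out, or with the replicate block (0.142). Without both libraries that stood apart it was 1.53-fold lower (adjusted p = 0.0144). In the last 1000 bases of Nid2, 437 bases lie over exons of a gene on the other strand, Rtraf, counted as 2700060E02Rik. That gene rose (173 ± 9.52 against 97.0 ± 7.97 CPM, adjusted p = 0.0173). Since the strand setting of the counting is not given in the sources used here, reads of Nid2 and of that gene cannot be told apart. For the other 8 genes no exon of another gene lay in the last 1000 bases, and no near-identical 3' end was found. The count ratio of Nid2 to Nid1 was 0.0231, 0.137 and 0.135 in pCAF and 0.288, 0.164, 0.133 and 0.164 in NMF. pCAF replicates 2 and 3 were close to NMF replicate 3, and replicate 1 was far below all others. The difference of mean log2 ratios was -1.24 (exact two-sided permutation p = 0.171; 0.257 adjusted over 3 ratios), and it was -0.39 without pCAF replicate 1.

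Hspg2 and Agrn encode large proteoglycans whose heparan sulfate chains bind growth factors, and agrin also organises the neuromuscular junction. Hspg2 (chromosome 4, 137468769 to 137570630, plus strand) stood at 171, 264 and 204 CPM in pCAF and at 313, 229, 294 and 320.3 CPM in NMF. pCAF replicate 2 lay above NMF replicate 2, and otherwise pCAF was below NMF. Its means were 213 ± 47.0 and 289 ± 41.5 CPM (log2 fold change -0.44, SE 0.26, 95% interval -1.01 to 0.13, adjusted p = 0.230). Agrn (chromosome 4, 156165290 to 156197488, minus strand) stood at 166, 112 and 127 CPM in pCAF and at 118, 133, 116 and 227 CPM in NMF. The groups were intermingled, with NMF replicate 4 above the rest. Agrn did not pass (135 ± 27.98 against 148 ± 52.8 CPM; log2 fold change -0.14, SE 0.31, 95% interval -0.82 to 0.54, adjusted p = 0.777), and its log2 fold change was 0.17 without NMF replicate 4 (adjusted p = 0.650).

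**Figure D3:**
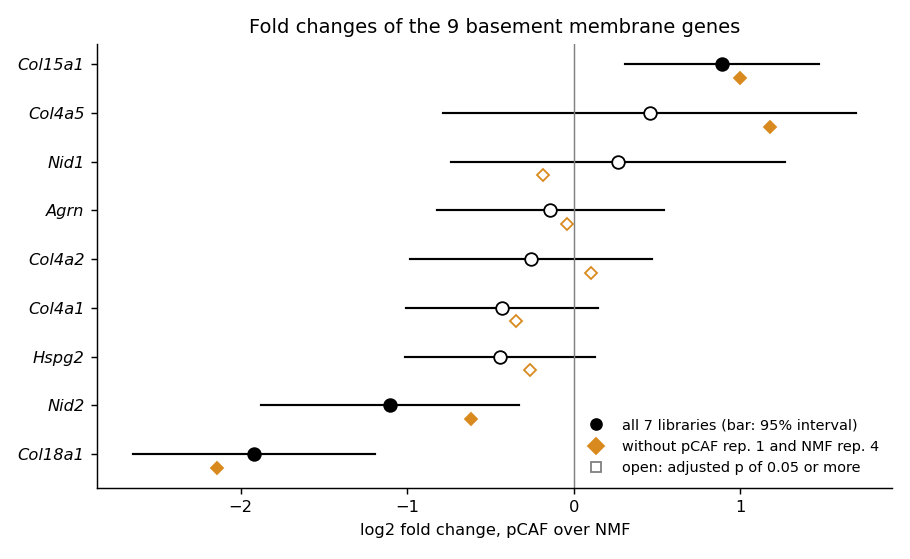
Log2 fold change of each gene, pCAF over NMF (horizontal axis), from all 7 libraries (circles, with 95% intervals as bars) and without pCAF replicate 1 and NMF replicate 4 (diamonds); open symbols did not pass an adjusted p of 0.05. Col15a1, Nid2 and Col18a1 pass in both fits, at 0.89, -1.10 and -1.92 over all libraries, and Col4a5 passes without the 2 libraries, at 1.18.

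The genes around the scaffold were taken from 7 lists with 89 symbols, of which 69 were tested. Of these 18 rose (26.1%, against 14.3% of all genes) and 14 fell (20.3%, against 14.2%), with a median log2 fold change of 0.09. The lists, like the 9 genes, were chosen with earlier results of these data known. Shares set against those of all genes, here and below, are therefore a description only. The direction differed between lists. Among 15 tested genes for folding, export and crosslinking of collagen IV, 9 rose (60%, against 14.3% of all genes) and 0 fell (against 14.2%). Their median log2 fold change was 1.24. Their products act on other collagens as well. The fibroblast marker sum was also higher in pCAF (73283 to 82725 against 26331 to 46233 CPM), and its part was not tested. P4ha3, a prolyl hydroxylase subunit, rose 30.8-fold (179 ± 30.5 against 5.54 ± 2.87 CPM, adjusted p = 3.69e-05), P4ha2 3.32-fold (adjusted p = 8.24e-04) and the prolyl hydroxylase P3h1 3.10-fold (adjusted p = 0.00105). P3h2, the gene of this list that was not tested, had 1 count in pCAF and 2 in NMF. Serpinh1, the collagen chaperone HSP47, did not pass (2289.6 ± 1447 against 1047 ± 333 CPM, adjusted p = 0.108), with 1189 counts in pCAF replicate 1 against 6076 and 5028 in replicates 2 and 3. It passed without pCAF replicate 1 (log2 fold change 1.56, adjusted p = 0.00219). Pxdn, the peroxidase that forms the sulfilimine crosslink of collagen IV, had a log2 fold change of -0.12 (adjusted p = 0.745; named after its value was seen).

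Laminins form the other main network. Of 9 tested laminin chains 4 fell (44.4%, against 14.2% of all genes) and 1 rose (11.1%, against 14.3%). The other 4 did not pass, and the median log2 fold change of the list was -1.29. Without pCAF replicate 2 or with the replicate block, 2 fell. Lamc1, the gamma chain of most laminins, fell 2.55-fold (139 ± 48.4 against 354 ± 37.8 CPM, adjusted p = 0.00765) and Lamc3 4.03-fold (adjusted p = 0.00677). Lama2, the alpha chain of muscle and nerve, fell 3.76-fold (adjusted p = 0.0246), and 6.43-fold without pCAF replicate 1. Lama2 no longer passed when pCAF replicate 2 (adjusted p = 0.0820) or 3 (0.0717) or NMF replicate 4 (0.0654) was left out, or with the replicate block (0.0536), and an antisense gene overlaps its 3' end. All 5 tested Schwann cell markers fell beside Lama2 (Sox10 was at 0 in pCAF), as did all 16 blood endothelial and all 5 tested adipocyte markers. Within pCAF, replicate 1 had the most Lama2 counts (550, against 216 and 135) and the lowest Schwann cell sum (4.99 CPM). Within NMF, replicate 4 was highest in both, with Lama2 at 1146 CPM and the Schwann cell sum at 1011 CPM. The part of these cell types in the fall of Lama2 was not tested. Lama1, an alpha chain of early development, rose 70.4-fold (28, 85 and 122 counts in pCAF against 1, 2, 4 and 0 in NMF, adjusted p = 4.89e-04), and 119.8-fold without NMF replicate 3 or 46.3-fold without NMF replicate 4. Lamb1, the most abundant chain that did not pass, was at 644 ± 57.4 against 606 ± 151 CPM (adjusted p = 0.839).

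Of the other basement membrane collagens 2 of 5 could be tested. Col7a1, the anchoring fibril collagen, rose 10.3-fold (268 ± 195 against 25.8 ± 7.74 CPM, adjusted p = 7.38e-04), and 6.05-fold without pCAF replicate 1. Col4a4, a partner of the Col4a5 chain, fell (adjusted p = 9.47e-04), with 2 counts in pCAF and 285 in NMF, a ratio of 58.3 for NMF over pCAF (95% counting interval 15.996 to 484). Without pCAF replicate 1 no pCAF count was left, and with 3 counts for the whole group as its limit Col4a4 was at least 25.9-fold lower. Without pCAF replicate 3 the ratio was 38.8 (10.6 to 322). Of 8 tested further basement membrane proteins 4 fell (50%, against 14.2% of all genes) and 1 rose (12.5%, against 14.3%). Sparc, a collagen-binding glycoprotein, rose 4.08-fold (19215 ± 3001 against 4705 ± 1044 CPM, adjusted p = 5.84e-04). The fibroblast marker sum was higher in pCAF too, and its part was not tested. Ntn1 (netrin 1) fell 11.7-fold (adjusted p = 5.22e-04), Egflam (pikachurin) 6.80-fold (adjusted p = 0.00155) and Tinagl1 8.95-fold (adjusted p = 0.00381). All 16 blood endothelial markers and all 5 tested markers each of adipocytes and Schwann cells fell beside them, and their part was not tested. For Smoc2 the means were 76.4 ± 26.96 and 84.8 ± 5.92 CPM, with an adjusted p of 0.743. Without pCAF replicate 1, 2 genes of this list rose, in a fit where 2021 of 11048 tested genes rose.

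Of 10 tested receptors 3 fell (30.0%, against 14.2% of all genes) and 1 rose (10%, against 14.3%), and with the replicate block 1 fell. Itgb1, the beta subunit shared by most laminin and collagen receptors, rose 1.79-fold (594 ± 67.7 against 333 ± 74.0 CPM, adjusted p = 0.0355). Itgb1 no longer passed when pCAF replicate 2 (adjusted p = 0.0720) or 3 (0.0770) or NMF replicate 1 (0.0839), 2 (0.109) or 3 (0.104) was left out. It also did not pass with library totals (0.110) or with no filter (0.0630), and 2 receptors rose without pCAF replicate 1 or with DESeq2. Bcam, a laminin receptor, fell 35.4-fold (4.28 ± 3.72 against 153 ± 49.3 CPM, adjusted p = 5.84e-04), and 21.9-fold without both libraries that stood apart. The laminin-binding integrin subunits Itga6 and Itgb4 fell 3.34-fold and 3.21-fold (adjusted p = 0.0111 and 0.0123), but neither passed with the replicate block (0.0529 and 0.0654), nor Itgb4 without pCAF replicate 2 (0.0506). Beside these receptors all 16 blood endothelial markers and 4 of 10 tested epithelial markers fell, the epithelial sums overlapping between the groups, and their part was not tested. Dag1, dystroglycan, was at 334 ± 22.7 against 369.7 ± 31.2 CPM (adjusted p = 0.676).

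Among 13 tested genes of heparan sulfate synthesis and editing, which act on the chains of perlecan, agrin and collagen XVIII, 2 rose (15.4%, against 14.3% of all genes) and 1 fell (7.69%, against 14.2%), shares near or below those of all genes. Without both libraries that stood apart 5 rose and 4 fell, in a fit where 25.9% of all genes rose and 26.9% fell. Sulf1, an extracellular sulfatase, rose 4.80-fold (448 ± 103 against 93.2 ± 8.15 CPM, adjusted p = 1.79e-04) and Hs2st1, a sulfotransferase, 2.62-fold (adjusted p = 0.0123; 0.0571 without pCAF replicate 3 and 0.0598 with the replicate block). Glce, the epimerase, fell 2.99-fold (adjusted p = 0.00956), and 2 genes fell without pCAF replicate 1. Ext1, a chain polymerase, did not pass (856 ± 847 against 294 ± 42.6 CPM, adjusted p = 0.0514) with 3307 counts in pCAF replicate 1 against 667 and 649, and its log2 fold change of 1.54 became 0.32 without that library (adjusted p = 0.272). It passed without pCAF replicate 2 (adjusted p = 0.0270) or 3 (0.0242), with no filter (0.0476) and with DESeq2 (0.0177). Of 12 tested proteases 3 rose (25.0%) and 1 fell (8.33%), and 5 rose and 2 fell with DESeq2. Mmp9, a gelatinase that cuts collagen IV, rose 41.0-fold (68.9 ± 25.4 against 1.57 ± 0.857 CPM, adjusted p = 6.09e-05) and Mmp3 3.98-fold (adjusted p = 0.00248). Mmp10 rose (adjusted p = 4.52e-05) with 208 counts in pCAF and 1 in NMF, a ratio of 508 (95% counting interval 90.2 to 20170.0), which was 301 without NMF replicate 4 (53.5 to 11959) and at least 139 without NMF replicate 2, where no count was left. Mmp15, a membrane-type protease, fell (adjusted p = 4.05e-04), at a ratio of 38.1 for NMF over pCAF (12.9 to 186), 76.5 without pCAF replicate 2 (13.6 to 3033) and 25.3 without pCAF replicate 1 (8.57 to 123). For Mmp2 the means were 2359 ± 490.4 and 1770.5 ± 243 CPM, with an adjusted p of 0.268. Without pCAF replicate 1 or NMF replicate 4, 2 proteases fell. Without both together, 5 proteases rose and 3 fell.

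**Figure D4:**
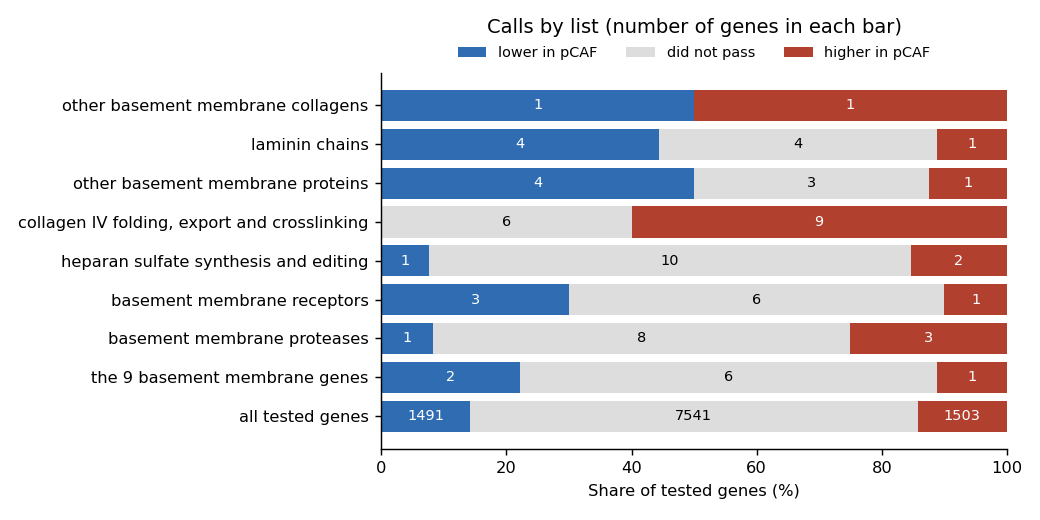
Share of the tested genes (horizontal axis, percent) that were lower in pCAF (blue), did not pass (grey) or were higher in pCAF (red), for 7 lists, the 9 scaffold genes and all tested genes; numbers are genes. The folding and crosslinking list has 9 higher and 0 lower, the laminin list 1 higher and 4 lower, and the 9 scaffold genes 1 higher and 2 lower.

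Likeness between genes was taken as Pearson's r of log2 CPM over the 7 libraries after the group means were removed, among 8502 other genes whose mean level reached 10 CPM. It is a description only, over libraries that differ in depth and include the 2 that stood apart. The highest r among 8502 genes over 7 libraries can be near 1 without any link between the genes. The genes most like Col4a1 were Zfp692 (r = 0.974), Daam1 (0.945) and Zfhx3 (0.940). Col4a2 was not among them, which does not say how closely it followed Col4a1. Most like Col15a1 were Ralgds (0.978), Gpsm2 (0.977) and Slc39a11 (0.972), and most like Col18a1 were Pdlim7 (0.981), Sirt3 (0.976) and Mapkapk2 (0.971). Between the groups, Pdlim7 and Mapkapk2 rose (log2 fold changes 0.91 and 1.08, edgeR adjusted p = 0.0167 and 0.00561), opposite to Col18a1. Sirt3 fell as Col18a1 did (-1.39, edgeR adjusted p = 0.0117). Genes on the other strand overlap the 3' ends of Gpsm2 and Sirt3.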

How the data were processed

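Sorted mouse stromal cells were profiled by sequencing of 3' ends of polyadenylated RNA, in 3 pCAF and 4 NMF libraries. The authors deposited raw counts per gene symbol, unscaled. STAR 2.4.2a, HTSeq, bcl2fastq and the build mm10 are named, per the submitters' processing notes, with no roles stated. Annotation, strand setting and use of molecular identifiers are not given in the sources used here.

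Counts were fitted in R 4.3.3 with edgeR 4.0.16 (filterByExpr, TMM, robust quasi-likelihood F test, two-sided, Benjamini-Hochberg over 10535 genes, threshold 0.05), with samples grouped by title. SE is the log2 fold change over the root of F, and 95% intervals use the test's degrees of freedom. Log2 ratios within libraries used counts plus 0.5 and exact permutation tests (scipy 1.17.1). Counting intervals are exact (binomial) and, like floors, cover counting error only. Only the count tests (edgeR, DESeq2 and limma-voom) were run on simulated counts, which were drawn without any library set apart. The permutation tests, counting intervals and sequence comparisons were not. Depth was 1885039 to 4990070 counts per library. Symbols were matched to GENCODE M21, and the last 300 bases of transcripts were compared with blastn 2.17.0 (at least 80 bases at 95% identity).

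Members and lists were chosen with earlier results of these data known. The genes named from each list were up to 3 per direction with the smallest p and the most abundant that did not pass; likeness names the 3 nearest genes of Col4a1, Col15a1 and Col18a1. For ratios a pseudocount of 5 or none was also tried. Alternatives were DESeq2 size factors, library totals and upper quartile factors; no filter or a mean of at least 10 CPM; DESeq2 1.42.0 and limma-voom 3.58.1; a replicate block; each library left out; and both libraries that stood apart left out. Replicate numbers were not used as pairs in the main fit. Correlations of deviations from the group means of same-numbered libraries were -0.09, 0.08 and -0.01. With so few libraries per group, these cannot tell whether a number marks a shared animal or batch.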

Additional observations from a re-analysis of the deposited data

Results flagged for a closer look

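In 4 of 42 results that were checked, 1 NMF library lay further from the other 3 than Dixon's 95% critical value allows, which chance gives in about 1 group in 20. Col4a2 was at 1482 CPM in NMF replicate 4 against 643.5 to 759 CPM in the other NMF libraries. Agrn was at 226.5 CPM in that library against 115.8 to 132.6 CPM, and Lama2 at 1146 CPM against 400.2 to 514 CPM. Mmp10 was at 0.422 CPM in NMF replicate 2, from 1 count, and at 0 in the others.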

How the results depend on the processing

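The 16 alternatives kept Col18a1 lower in pCAF and past the threshold. Col15a1 kept its direction in all 16 and passed in 10, and Nid2 kept its direction in all 16 and passed in 9. Col4a1 and Hspg2 kept a negative fold change and passed in 0. The number of the 9 genes that were higher, 1 over all libraries, was 0 with library totals, 0 with the replicate block, 2 without both libraries that stood apart, and 0 to 1 with 1 library left out. The number lower, 2 over all libraries, was 1 with the replicate block and 1 to 2 with 1 library left out. Of the 7 other lists, the 14 genes that fell became 9 with the replicate block, and the 18 that rose became 16. Without both libraries that stood apart, 26 genes of these lists rose and 21 fell. Values that changed sign, none past the threshold, were log2 fold changes of Col4a2 (0.0944 with the replicate block, 0.10 without both libraries that stood apart, and -0.40 to 0.11 with 1 library left out), Agrn (0.13 with the block, and -0.32 to 0.17 with 1 library left out), Nid1 (-0.0208 with library totals, -0.19 without both libraries, and -0.47 to 0.60 with 1 library left out), Lamb1 (-0.16 with library totals, and -0.00306 to 0.29 with 1 library left out) and Smoc2 (0.10 without both libraries, and -0.33 to 0.11 with 1 library left out). The cause was not tested. The 3 ratios kept their direction with a pseudocount of 5 or none, with each library left out and without both libraries that stood apart. The labels do not say whether a replicate number marks a shared animal or batch. With the replicate block 978 genes were higher and 1023 lower, against 1503 and 1491 without it. Without both libraries that stood apart the numbers were 2802 and 2913. Col4a5, with 7 to 78 counts per library, had the widest 95% interval of the 9 genes (-0.78 to 1.70).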
